A study of Brachypodium distachyon with 11 samples.

Results

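The comparison concerns the chromatin regions bound by PHYC and by ELF3 at a single time of day in seedlings of Brachypodium distachyon (line Bd21-3), a small grass that stands in for wheat and barley in the laboratory. Its data are 2 lists of peaks from phyC_OX seedlings and 1 from ELF3_OX seedlings, all in long days (LD) at zeitgeber time 20 (ZT20, 20 hours after lights on). Every deposited peak of the 3 lists was merged by overlap of at least 1 bp, which gave 22829 regions of the 37938 obtained from all 10 lists of the series. Each region was then placed by the lists that hold it: both PHYC lists and ELF3, both PHYC lists only, ELF3 only, or one of the 4 classes that rest on a single PHYC list.

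The phyC_OX and ELF3_OX plants overexpress PHYC or ELF3 from a UBIQUITIN promoter, with a GFP and FLAG tag at the C terminus, as homozygous lines with a single insertion. The promoter is active in most cells and drives only the tagged transgene, which was added to wild-type plants that keep their own PHYC and ELF3 genes. The amount of tagged protein can still change with light and time of day after transcription, and protein levels were not analysed here. Whole seedlings of week 2, grown at 20 °C, were used. Chromatin was precipitated through the FLAG tag, and the recovered DNA was sequenced (ChIP-seq). With 20 h of light per day, as the study's flowering experiments used, lights go off at ZT20. The 2 PHYC libraries carry the same labels and serve here as the spread between libraries of one condition, but nothing says that they come from separate plants, so this spread may be technical. ELF3 at LD ZT20 is a single library, and untagged plants were not analysed here.

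Phytochromes are red and far-red light receptors that move to the nucleus in light, where they alter transcription through partner proteins and not through a DNA-binding domain of their own. In Brachypodium and other temperate grasses PHYC is needed for flowering in long days. ELF3 is the scaffold of the evening complex, in which it joins ELF4 and the DNA-binding protein LUX, and the complex represses clock and flowering genes toward the night. ELF3 binds phytochromes, and the comparison asks whether the photoreceptor is found at the same chromatin as ELF3.

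PHYC gave 13351 and 12345 deposited peaks and ELF3 gave 14346. The authors' values are a fold enrichment over local background and the p and q from MACS2, with all peaks under p of 0.1 retained. Between 99.98% and 100% of the fold and p pairs of each list corresponded to a whole number of ChIP reads at the peak, set against a background with the same genome-wide value per base in all 10 lists. On that reading the PHYC libraries held 5.80 and 4.86 reads, and ELF3 6.36 reads, for each read of the background sample, so PHYC replicate 2 was the shallowest of these 3. The median peak rested on 37 and 29 reads in the PHYC libraries and on 41 reads in ELF3. Total read numbers remain unknown. Below, "reads" are these recovered reads at the strongest peak of a region, and "level" is the same number divided by the library's relative depth.

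PHYC and ELF3 shared most of what the PHYC pair had in common. Of the 7370 regions held by both PHYC lists, 5682 also held an ELF3 peak, or 77.1% (95% exact binomial interval 76.1 to 78.1%, which covers counting error only). Of the same 7370 regions, the 6 further ELF3 libraries of the series listed 70.9 to 83.3% and the library of PRR37, a pseudo-response regulator of the clock, 76.7%. Put the other way, PHYC replicate 2 held 69.0% of the regions that PHYC replicate 1 shared with ELF3, and PHYC replicate 1 held 82.6% of those that PHYC replicate 2 shared with ELF3. A further 1688 regions were held by both PHYC lists without ELF3, which is 7.39% of all regions, and 4806 were held by ELF3 without either PHYC list (21.1%). The 2 conditions are not counted alike in this split, because a PHYC region had to appear in 2 lists and an ELF3 region in 1. With PHYC replicate 2 as the only PHYC list, 5393 regions were PHYC only and 7402 were ELF3 only. Replicate 1 as the only PHYC list gave 5042 PHYC-only regions, against 6037 of ELF3 only.

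**Figure D1:**
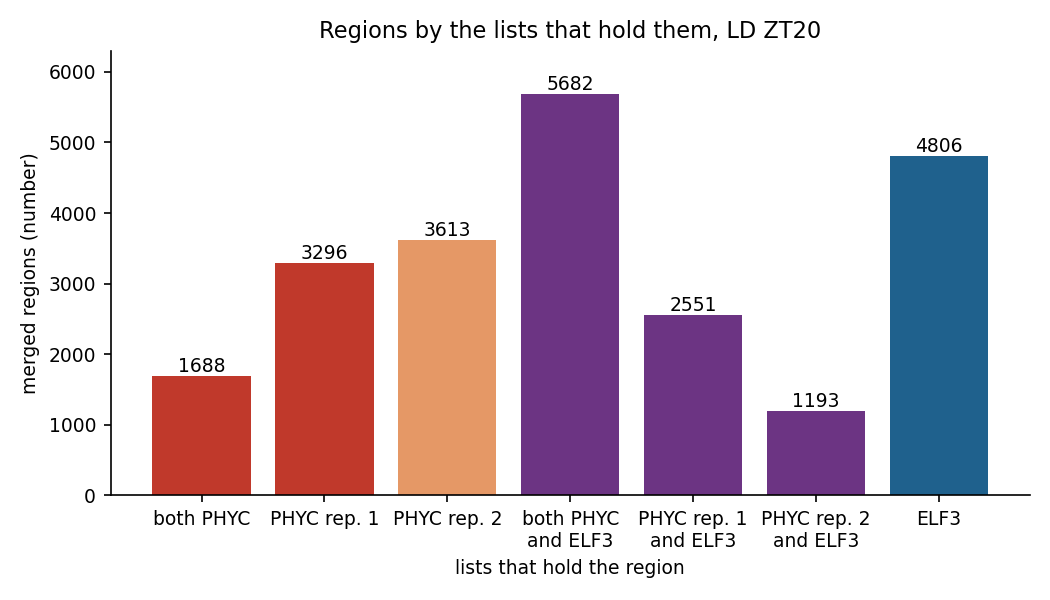
Number of merged regions (vertical axis) in each of the 7 classes defined by the lists that hold a region (horizontal axis), with single counts and no error bars. The 5682 regions of all 3 lists form the highest bar, and more regions join PHYC replicate 1 with ELF3 (2551) than join the PHYC replicates to each other without ELF3 (1688).

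PHYC replicate 1 overlapped more with ELF3 than with PHYC replicate 2, and for PHYC replicate 2 the order was the reverse. Of the regions of PHYC replicate 1, 55.8% (54.9 to 56.6%) were held by PHYC replicate 2 and 62.3% (61.5 to 63.1%) by ELF3. Of the regions of PHYC replicate 2, 60.5% (59.7 to 61.4%) were held by PHYC replicate 1 and 56.5% (55.6 to 57.3%) by ELF3. By base pairs the Jaccard index (shared bases over all bases covered by either list) was 0.355 between the PHYC lists, 0.376 between PHYC replicate 1 and ELF3, and 0.302 between PHYC replicate 2 and ELF3. Over all peaks the PHYC pair thus lay between the 2 PHYC-to-ELF3 values. With lists of equal length the order varied with the length. Over the 1000 strongest peaks of each list the indices were 0.382, 0.383 and 0.300, so the first 2 were nearly equal. Over the 100 strongest they were 0.426, 0.382 and 0.322, where the PHYC pair had the highest value. The PHYC pair was also highest over the 200 and 500 strongest. PHYC replicate 1 with ELF3 was highest over the 50, 2000, 5000 and 10000 strongest.

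Sharing rose with the fold enrichment of a region in every list. Among regions of PHYC replicate 1 with a fold up to 2, 32.5% were held by PHYC replicate 2 and 35.2% by ELF3. Between 3-fold and 4-fold the shares were 88.1% and 93.9%, and above 4-fold 485 of 490 regions were held by PHYC replicate 2 and 489 of 490 by ELF3. The other lists followed the same course, and all 471 ELF3 regions above 4-fold had a peak in PHYC replicate 1, with 465 in PHYC replicate 2. In every range of fold, ELF3 regions were found more often in PHYC replicate 1 than in PHYC replicate 2, the shallower library.

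**Figure D2:**
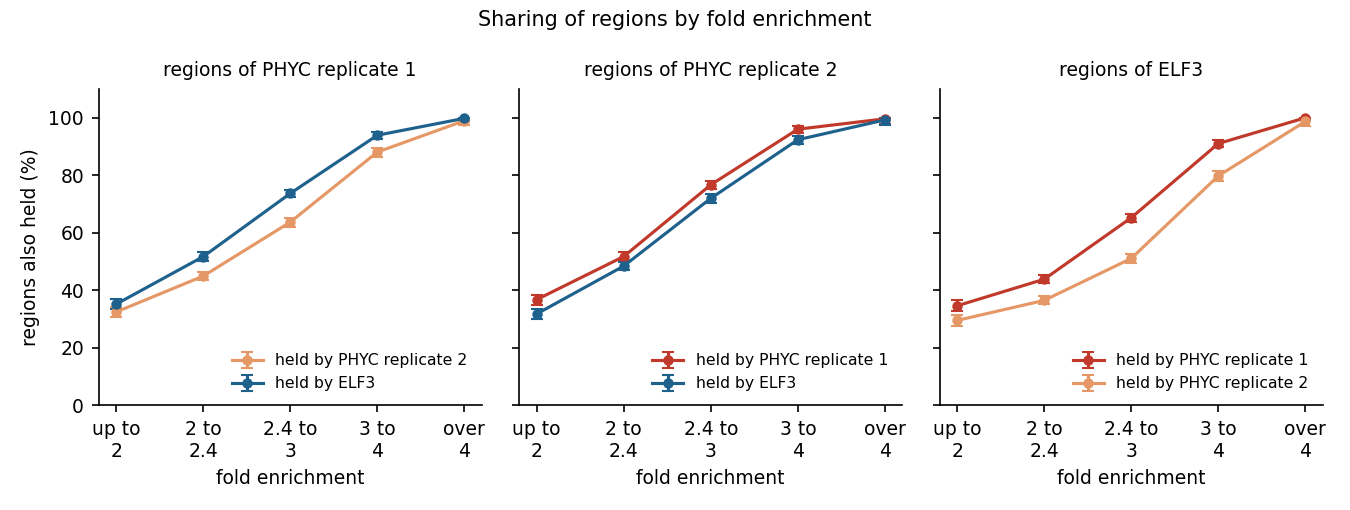
Percent of the regions of each list (one panel per list) that another list also holds (vertical axis), by the fold enrichment of the region in the panel's own list (horizontal axis), with 95% exact binomial intervals. The curves climb together from about 30 to 37% up to 2-fold to over 98% above 4-fold, and the PHYC-to-ELF3 curve lies above the PHYC-to-PHYC curve in the first panel and below it in the second.

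Width and enrichment rose with the number of lists that hold a region. A merged region spans all of its peaks, so regions of more lists are wider in part by construction. The median region was 378 bp wide where all 3 lists held it, 319 bp for both PHYC only, and 217, 222 and 214 bp for PHYC replicate 1 only, PHYC replicate 2 only and ELF3 only. In PHYC replicate 1 the median fold was 2.72 at regions of all 3 lists, 2.22 at regions of both PHYC lists only and 2.08 at its own regions. PHYC replicate 2 had medians of 2.56, 2.19 and 2.05 in these classes. ELF3 had 2.73 at regions of all 3 lists and 2.20 at its own. Regions of a single list were narrow and weak, with medians of 26 to 36 reads at the summit, and none of the ELF3-only regions exceeded 3.90-fold.

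At the 5682 regions of all 3 lists the levels of PHYC replicate 1 and ELF3 were as close as those of the PHYC pair, and PHYC replicate 2 lay somewhat further from ELF3. A region had to be listed in all 3, which trims large differences in every pair. The log2 ratio of levels had a median of 0.03 and an SD of 0.28 for PHYC replicate 1 over ELF3, a median of -0.11 and an SD of 0.31 for PHYC replicate 2 over ELF3, and a median of 0.13 and an SD of 0.28 for PHYC replicate 1 over replicate 2. Read counting alone, taken at each region's reads, gives SDs of 0.31, 0.33 and 0.33 for these pairs, so no observed spread was wider than that of counting. Spearman's rho of the levels across regions was 0.77 for PHYC replicate 1 with ELF3, 0.70 for PHYC replicate 2 with ELF3 and 0.77 for the PHYC pair (n = 5682 regions, which share a background sample and are not independent replicates). At the 581 of these regions with q under 0.01 in at least 1 list, the SD was 0.30 for PHYC replicate 1 over ELF3 and 0.36 for PHYC replicate 2 over ELF3, above the 0.24 and 0.26 of counting, while the PHYC pair had 0.26 against 0.26. That set was picked by high values in single lists, mostly PHYC replicate 1 and ELF3. At the 835 regions above 3-fold in PRR37, a library with no part in the comparison, the SDs were 0.26, 0.30 and 0.26 and those of counting 0.26, 0.29 and 0.29 for the same pairs. Summits lay a median of 28 and 31 bp apart between PHYC and ELF3, and 31 bp apart between the PHYC lists.

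**Figure D3:**
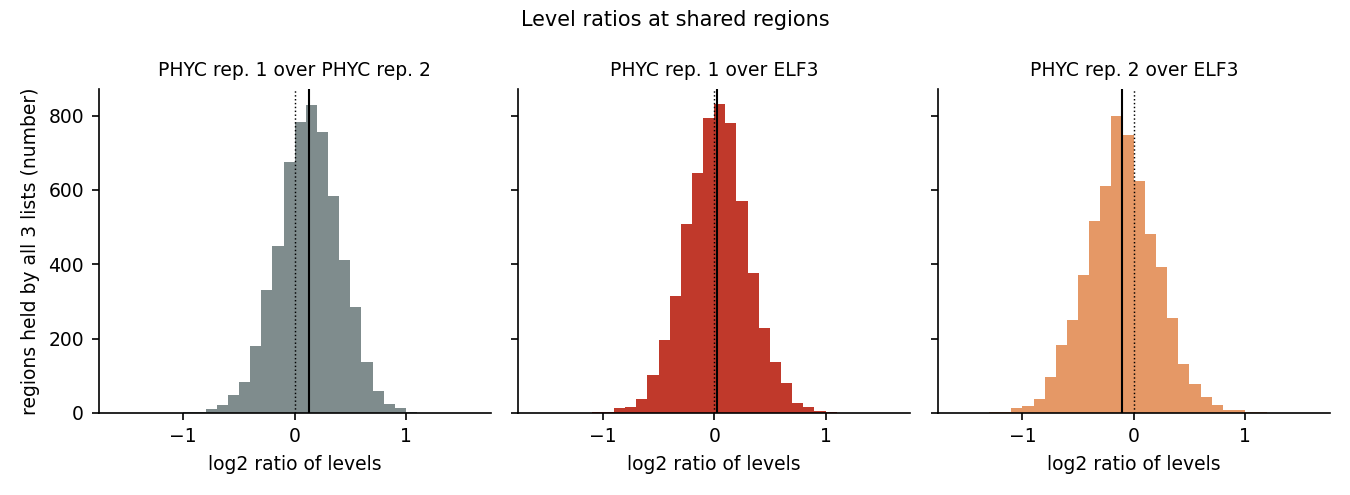
Distribution of the log2 ratio of levels (horizontal axis) over the 5682 regions of all 3 lists (vertical axis, number of regions), for PHYC replicate 1 over PHYC replicate 2, PHYC replicate 1 over ELF3 and PHYC replicate 2 over ELF3. Solid lines mark the medians (0.13, 0.03 and -0.11), dotted lines mark 0, and the 3 distributions have similar widths.

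Few of these regions separated ELF3 from both PHYC libraries. After each library was centred on its median, both PHYC levels were at least 1.5-fold higher than the ELF3 level at 32 of 5682 regions (0.563%) and at least 1.5-fold lower at 31 (0.546%). The same count for PHYC replicate 2 against the other 2 libraries was 21 regions higher and 36 lower, and for PHYC replicate 1 it was 8 higher and 14 lower. ELF3 therefore stood apart about as often as the PHYC library of lower depth. The 6 further ELF3 libraries and the PRR37 library, which played no part in choosing these 63 regions, were read at them. The log2 level of the further ELF3 libraries over PRR37 had medians of -0.20 to 0.18 at the regions where PHYC was higher, and of 0.15 to 0.35 at the regions where PHYC was lower, against 0.14 to 0.30 over all regions of the class. Every one of the 6 libraries had a lower median at regions where PHYC was higher than over the class, and 4 of 6 had a higher one at regions where PHYC was lower. All 6 ratios have the same PRR37 library as denominator, so they are not independent readings. The medians rest on 26 to 30 regions where PHYC was higher and on 23 to 28 where PHYC was lower.

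The strongest regions common to PHYC and ELF3 were each found in all further libraries too. The 10 regions with the highest smallest fold among those under q of 0.01 in all 3 lists, away from chromosome ends, were chosen by rule. All 10 had a peak in the 6 further ELF3 libraries and in PRR37. Over all 5682 regions of the class, 63.3% had a peak in all 6 of these ELF3 libraries and 82.8% had one in PRR37. On chromosome 4 (43738724 to 43739562), less than 500 bp outside LOC100833617, PHYC had 7.46-fold and 7.55-fold (139 and 116 reads) and ELF3 7.35-fold (148 reads). On chromosome 1 (54006118 to 54007067), inside LOC100831978 and less than 500 bp from its end, PHYC had 6.89-fold and 7.38-fold (107 and 95 reads) and ELF3 7.57-fold (128 reads). ELF3 lay within 1 unit of fold of both PHYC replicates at these 2 regions. Another region on chromosome 1 (50868491 to 50868891) lay inside LOC112269920, a long non-coding RNA gene, where PHYC reached 7.46-fold and 6.77-fold, and ELF3 8.20-fold. A region on chromosome 3 (39758828 to 39759165) had no gene within 2 kb and PHYC folds of 6.77 and 6.38, next to 6.31 for ELF3. At LOC100831207 (chromosome 5, 27736816 to 27737555) the PHYC libraries, at 8.06-fold and 6.45-fold, lay on either side of ELF3 at 6.73-fold.

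Regions of both PHYC lists without ELF3 were of moderate strength at best. The member with the highest smaller fold of the PHYC pair lay on chromosome 5 (25692279 to 25692679), less than 500 bp outside LOC100824871, with 3.96-fold and 3.7-fold (77 and 59 reads). It had a peak in all 6 further ELF3 libraries, SD ZT20 included, although the list of LD ZT20 did not hold it. A region beside LOC104583603 (chromosome 3, 20180531 to 20181089) had 3.57-fold and 3.8-fold (77 and 69 reads), and one beside LOC100825924 (chromosome 2, 49365632 to 49365925) had 3.81-fold and 3.55-fold (59 and 45 reads). Each of these was listed in 3 of the 6 further ELF3 libraries and in PRR37. LOC100823583 (chromosome 3, 14774872 to 14775114) was the most restricted of the 10 chosen by strength: its region had 3.67-fold and 3.41-fold for PHYC and a peak in 1 further ELF3 library, LD ZT0. Of the 10 regions, 7 were centred outside a gene and within 2 kb of it, 9 were listed for PRR37, 10 for ELF3 at LD ZT0 and 5 for ELF3 at LD ZT4. Over all 1688 regions of this class, 56.1% were listed for PRR37, 55.0% for ELF3 at LD ZT0 and 32.2% for ELF3 at LD ZT4. The class share for the first of these counts was not computed.

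The study's threshold of q under 0.01 left 592 merged regions, and almost none of them lacked a deposited peak of the other protein. Most deposited peaks do not pass this threshold, so the other protein was held to a looser one. ELF3 at LD ZT20 had 341 peaks under q of 0.01. The paper reports far more significant ELF3 peaks at ZT20, without naming the photoperiod there. ELF3 at SD ZT20 had 167 peaks under q of 0.01, so neither list reaches the paper's number, and the reason for this mismatch is unknown. Both PHYC lists and ELF3 passed q under 0.01 at 105 regions, both PHYC lists alone at 44 and ELF3 alone at 104. Of the 44 regions, 43 had a deposited ELF3 peak, and each of the 104 had a deposited peak of at least 1 PHYC list. The exception among the 44, named after its values were seen, lay 500 bp to 2 kb outside LOC100825213 (chromosome 3, 16187404 to 16187694) with 198 and 212 PHYC reads over a high local background, which gave 2.34-fold and 2.63-fold. PHYC replicate 1 passed alone at 186 regions, more than ELF3 alone, and 2 of these 186 (at LOC100824871 and at LOC100834132, chromosome 4, 38037925 to 38038195) had no ELF3 peak. Within the PHYC pair 4 of those 186 regions had no deposited peak in replicate 2, nor had 2 of the 126 regions at which PHYC replicate 1 and ELF3 passed. One of these 2, named after its values were seen, lay within 5 kb of the end of chromosome 2 (59130150 to 59130367), with 14.5-fold in PHYC replicate 1 (211 reads), no peak in PHYC replicate 2 and 12.6-fold in ELF3 (199 reads).

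ELF3 regions without either PHYC list were chosen in the same way by their fold. The strongest lay on chromosome 1 (50021076 to 50021318), inside LOC100827335 and less than 500 bp from its end, with 3.90-fold (62 reads). It was listed in 5 of the 6 further ELF3 libraries and not for PRR37. A region more than 500 bp inside LOC100837244 (chromosome 2, 4662307 to 4662560) had 3.77-fold (55 reads) and was listed in all 6. One beside the microRNA gene MIR166C (chromosome 3, 32841182 to 32841627), whose family targets the HD-ZIP III transcription factors of leaf and vascular patterning, had 3.58-fold (62 reads) and was listed in 5 of the 6. At LOC100842336 (chromosome 2, 51023937 to 51024169) ELF3 had 3.57-fold (72 reads), again with a peak in all 6 and none for PRR37. Of these 10 regions, 8 were centred inside a gene, 3 were listed for PRR37 and 5 to 9 for each further ELF3 library. The ELF3 library with 5 was LD ZT0, which had listed all 10 of the PHYC regions above. Over all 4806 ELF3-only regions PRR37 listed 16.9% and the further ELF3 libraries 29.1 to 41.3%. The class share centred anywhere inside a gene was not computed. Over 500 bp inside a gene were 3 of the 10, against 23.8% of the class for protein-coding genes.

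Within the shared class, ranks by fold picked out regions at which PHYC and ELF3 were most unequal. The rule took regions under q of 0.01 in at least 1 list and compared percentile ranks within each list. At LOC100826448 (chromosome 3, 55222289 to 55222853) PHYC had 5.01-fold and 5.80-fold (92 and 89 reads) and ELF3 2.26-fold (51 reads), that is ranks of 99.1 and 99.8 for PHYC and 38.1 for ELF3. Levels there were 15.9 and 18.3 for PHYC and 8.02 for ELF3, so both PHYC libraries lay about 2-fold above ELF3. At LOC100845708 (chromosome 3, 18930619 to 18931072) levels were 12.6 and 12.3 for PHYC and 6.29 for ELF3, with folds of 4.46, 4.45 and 1.82. In the other direction, LOC100834614 (chromosome 2, 3152455 to 3152747) had levels of 7.58 and 7.0 for PHYC and 12.9 for ELF3, and folds of 2.58, 2.44 and 4.25. At LOC100825733 (chromosome 3, 17533342 to 17533794) the levels were 7.76 and 4.94 for PHYC and 11.5 for ELF3. All 10 regions of this rule were listed in every further library. Over the whole class of 5682 regions the shares were 63.3% for all 6 ELF3 libraries and 82.8% for PRR37.

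Part of the rank differences lay in the background and not in the reads. On chromosome 5 (11916899 to 11917459, no gene within 2 kb) folds of 4.50 and 4.83 for PHYC and 1.80 for ELF3 came from levels of 11.0 and 11.7 for PHYC and 8.02 for ELF3, because the background at the summit was 1.67 and 1.64 for PHYC and 4 for ELF3. Its ELF3 summit lay 106 and 101 bp from the PHYC summits. On chromosome 1 (27320947 to 27321484, no gene within 2 kb) the levels were 8.27 and 8.44 for PHYC and 10.7 for ELF3, with backgrounds of 3 and 3 for PHYC and 1.56 for ELF3. In LOC100835635 (chromosome 2, 23385856 to 23386623) the ELF3 summit was 493 and 507 bp from those of PHYC, so different peaks within a merged region were compared.

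The further libraries were used to ask whether regions of each class are seen in ELF3 chromatin at other times or photoperiods. They were 6 ELF3_OX libraries (3 at ZT0 from LD, from short days, SD, and from constant light, LL, 2 at ZT4 from LD and SD, and SD at ZT20) and the PRR37_OX library of LD ZT4, in which the tagged protein is the pseudo-response regulator PRR37. Regions of both PHYC lists only were listed in 42.2 ± 8.59% of cases in the ELF3 libraries and regions of ELF3 only in 35.2 ± 4.25% (SD, n = 6 libraries). The difference, ELF3 only minus both PHYC only, averaged -6.99 percentage points and was negative in 5 of 6 libraries (p = 0.0625 in an exact two-sided test over all sign flips, which cannot go below 0.03125 with 6 libraries). LD ZT4 was the library with a positive difference (5.93 points). The sign of this contrast depended on how many PHYC lists were required: with one PHYC library at a time it was positive in every case, averaging 8.31 points with PHYC replicate 1 and 20.4 points with PHYC replicate 2 (exact sign-flip p = 0.03125 for each).

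Classes built from the same number of lists went one way, but equal list number did not make them alike. A region of a single PHYC list was missing from the second library of its own condition, whereas ELF3 had no second library at LD ZT20. The pairs with ELF3 include an ELF3 list, and regions of the PHYC pair are defined by lacking one. The tests below, run over ELF3 libraries, cannot separate this construction from a difference between the proteins. Regions of PHYC replicate 1 only and PHYC replicate 2 only were listed in 25.1 ± 2.73% and 18.3 ± 3.72% of cases, against 35.2 ± 4.25% for ELF3 only. ELF3 only exceeded the mean of both PHYC classes by 13.5 points on average, and by 8.73 to 19.4 points in 6 of 6 libraries (exact two-sided sign-flip permutation p = 0.03125, the smallest that 6 libraries can give, and 0.0469 after Benjamini-Hochberg adjustment over 3 tests). Regions of both PHYC lists only were listed in 42.2%, against 67.3 ± 6.39% for PHYC replicate 1 with ELF3 and 54.6 ± 8.50% for PHYC replicate 2 with ELF3. The mean of the ELF3-containing pairs was 18.7 points above the PHYC pair, and higher in 6 of 6 libraries (range 10.4 to 29.5 points, the same p of 0.03125 and adjusted 0.0469). Without any one of the 6 libraries neither test could pass, since 5 libraries allow no p below 0.0625. The 6 libraries share the ELF3_OX construct and a background sample, so their agreement is not that of independent experiments. Neither test passed at q under 0.01, with differences of 8.48 points (adjusted p = 0.0938 over 3 tests) and 6.81 points (adjusted p = 0.375 over 3 tests, exact sign-flip permutation).

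PRR37 also listed more of the regions of both PHYC lists only than of those of ELF3 only, and among classes of equal list number its order was the reverse of that in the ELF3 libraries. Its library held 56.1% of the regions of both PHYC lists only and 16.9% of those of ELF3 only. Among regions of one list it held 24.9% and 27.4% of the PHYC regions, against 16.9% of the ELF3 regions, a difference of -9.31 points for ELF3 minus the PHYC mean. Among regions of 2 lists it held 56.1% for the PHYC pair, 43.7% for PHYC replicate 1 with ELF3 and 43.8% for PHYC replicate 2 with ELF3. PRR37 is 1 library, so this order has no replicate check.

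**Figure D4:**
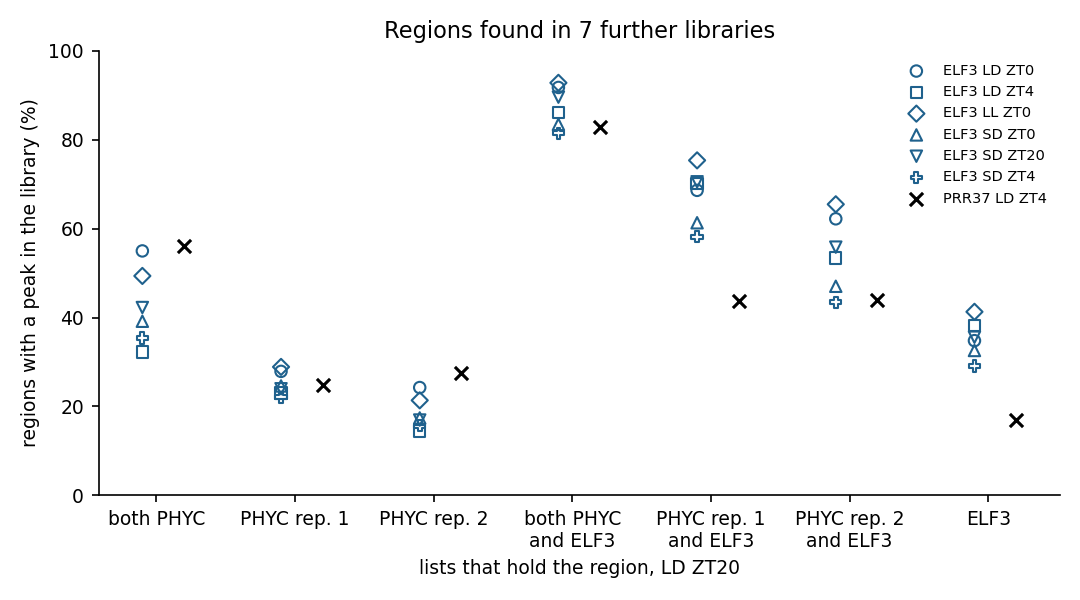
Percent of the regions of each class (horizontal axis) that have a peak in a further library (vertical axis), for 6 ELF3 libraries (open blue symbols) and the PRR37 library (black crosses), 1 point per library and no error bars. In ELF3 libraries both single PHYC classes (25.1% and 18.3% on average) lie below the ELF3 class (35.2%), and in PRR37 they lie above it (24.9% and 27.4% against 16.9%).

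Among regions of one list, the same order held at like strength. For regions above 2.4-fold, the mean share listed in the 6 ELF3 libraries was 36% and 28.1% for the PHYC replicates only, against 48.1% for ELF3 only. Up to 2-fold it was 18.6% and 14.9% for PHYC and 25.8% for ELF3. PRR37 held 30.7% and 35.2% of the PHYC regions and 21.6% of the ELF3 regions above 2.4-fold. In an alternative chosen after seeing the data, only peaks above 2.4-fold were kept in every list. The PRR37 differences then shrank to -4.77 points for regions of one list and -2.17 points for regions of 2 lists. Over all peaks they were -9.31 and -12.3 points. The 6 ELF3 libraries averaged 10.5 and 19.2 points in that alternative. At the regions of all 3 lists each of the 6 ELF3 libraries had levels closer in rank to ELF3 at LD ZT20 (rho 0.74 to 0.81) than to PHYC replicate 1 (0.73 to 0.78) or PHYC replicate 2 (0.65 to 0.73). PRR37 was closer to PHYC replicate 1 (0.76) and PHYC replicate 2 (0.74) than to ELF3 (0.72). These correlations run over 4627 to 5272 regions that share a background sample, and the shallower PHYC library had the lowest value in every ELF3 comparison but not for PRR37.

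ELF3 regions lay inside genes more often than PHYC regions did. A summit was counted as deep inside a gene when it lay within a protein-coding gene and over 500 bp from any gene end. Of the regions of one list, 20.3% (18.9 to 21.7%) of PHYC replicate 1 and 15.5% (14.3 to 16.7%) of PHYC replicate 2 were deep inside a gene, against 23.8% (22.6 to 25.1%) of ELF3. Among regions of 2 lists the share was 11.0% (9.51 to 12.5%) for the PHYC pair, against 20.3% (18.8 to 21.9%) for PHYC replicate 1 with ELF3 and 16.2% (14.1 to 18.4%) for PHYC replicate 2 with ELF3. Regions outside genes, 500 bp to 2 kb from the nearest end, went the other way, with 21.8% (19.9 to 23.8%) for the PHYC pair, against 13.2% (12.0 to 14.6%) and 17.4% (15.3 to 19.7%) for the pairs with ELF3. Intervals are exact binomial and cover counting error only.

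These shares differed between libraries as well as between proteins. Over all deposited peaks the share deep inside genes was 15.1% and 12.8% in the PHYC libraries, 17.5% in ELF3 at LD ZT20, 16.1 to 19.2% in the 6 further ELF3 libraries and 12.7% in PRR37. Both PHYC values lay below all 7 ELF3 values, and PHYC replicate 1 was 2.26 points above PHYC replicate 2, which is close to the -2.47 points of PHYC replicate 1 minus ELF3. The 5000 strongest peaks of each list gave 12.1% and 9.58% for PHYC, 13.7% for ELF3, 11.9 to 15% for the further ELF3 libraries and 9.66% for PRR37, so that PHYC replicate 1 then fell within the ELF3 range. Regions of all 3 lists were mostly at gene ends: 61.2% of their summits lay within 500 bp of an end of a protein-coding gene, against 40.7 to 41.6% in the 3 classes of one list.

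**Figure D5:**
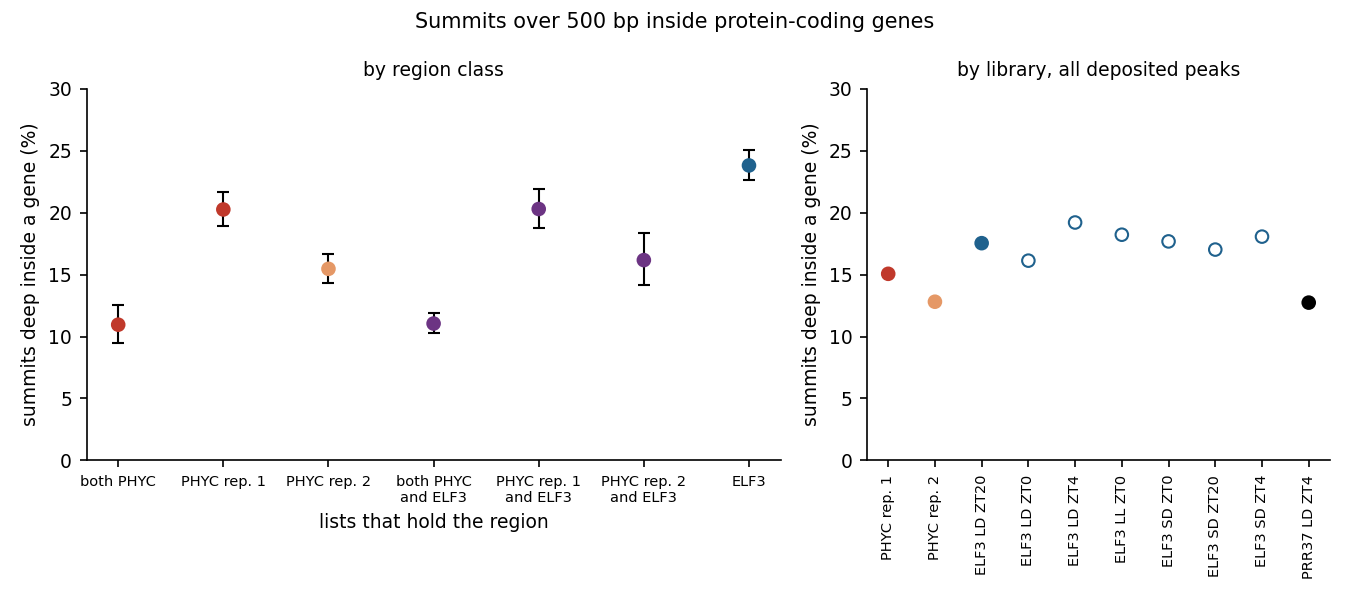
Percent of summits over 500 bp inside a protein-coding gene (vertical axes), by region class (left, with 95% exact binomial intervals) and by library over all deposited peaks (right, 1 point per library). On the left the PHYC pair and all-3 classes are lowest (11.0% and 11.1%) and the ELF3 class is highest (23.8%), and on the right both PHYC libraries (15.1% and 12.8%) lie below the 7 ELF3 libraries (16.1 to 19.2%).

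Of 25449 nuclear protein-coding genes, 6388 (25.1%) had a peak of both PHYC lists and of ELF3 on their body or within 2 kb. Both PHYC lists without ELF3 had peaks at 986 genes (3.87%), and ELF3 without either PHYC list at 2143 genes (8.42%). PHYC replicate 2 as the only PHYC list gave 2157 PHYC-only genes, against 4007 of ELF3 only, and PHYC replicate 1 alone gave 2252 PHYC-only genes. At q under 0.01 the counts were 109 (0.428%) for all 3, 58 (0.228%) for both PHYC lists only and 112 (0.44%) for ELF3 only. Nearly all of these exclusive genes had a weaker peak of the other protein: 57 of the 58 had a deposited ELF3 peak, and 110 of the 112 had deposited peaks in both PHYC lists. A shared gene was not always a shared region. Of the 6388 genes, 909 had no region that all 3 lists hold, so the peaks of the 3 lists did not all meet in one place there.

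Among the 39 nuclear protein-coding genes that carry a name in the RefSeq table, 9 were bound by all 3 lists, 3 by both PHYC lists only (BDG1, NDPK3 and CBF2), 2 by ELF3 only (SWN3 and MADS2) and 10 by none. These counts stand beside the 25.1%, 3.87% and 8.42% of all genes above. VRT-2, a MADS-box gene whose wheat counterpart is tied to the floral transition, had 3.66-fold and 3.54-fold for PHYC (49 and 39 reads) and 3.34-fold for ELF3 (48 reads). CAD5, a cinnamyl alcohol dehydrogenase of lignin synthesis, had 3.97-fold and 3.35-fold for PHYC (73 and 50 reads) and 3.74-fold for ELF3 (74 reads), and was the only one of the 39 with a peak under q of 0.01, in PHYC replicate 1. The 3 libraries lay within 1 unit of fold of each other at both genes.

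CBF genes, which encode transcription factors of the cold response, were listed for each protein in part. A peak on the body or within 2 kb was listed for 41.3% of all protein-coding genes in PHYC replicate 1, 37.4% in PHYC replicate 2 and 44.7% in ELF3. Of the 5 CBF genes, 4 had a peak in PHYC replicate 1, 5 in PHYC replicate 2 and 3 in ELF3. CBF4 had 3.26-fold and 2.78-fold for PHYC (48 and 33 reads) and 3.00-fold for ELF3 (47 reads) at overlapping peaks on chromosome 4 (40878531 to 40878755 in PHYC replicate 1, 40878510 to 40878749 in ELF3). CBF3 counted as bound by all 3, but its strongest PHYC peak (40871471 to 40871946 in replicate 1, 2.58-fold) and its strongest ELF3 peak (40876016 to 40876518, 2.02-fold) did not overlap. The PHYC peak is the one also counted for its neighbour CBF2, since it lay within reach of both genes. Genes of the SWN family, NAC transcription factors of the secondary cell wall, had a peak for 5 and 2 of 7 members in the PHYC lists and for 5 of 7 in ELF3, to be read against the same shares. SWN7 had 1.88-fold and 2.15-fold for PHYC (27 and 26 reads) and 3.32-fold for ELF3 (56 reads), with the PHYC replicate 1 peak at another place than those of replicate 2 and ELF3, and SWN1 had 1.97-fold in PHYC replicate 1, no peak in replicate 2 and 3.31-fold in ELF3. SWN5 gave PHYC folds of 3.16 and 3.62 and an ELF3 fold of 2.93, again with strongest peaks that did not overlap (chromosome 5, 28399302 to 28399517 in PHYC replicate 1, 28398922 to 28399194 in ELF3). MADS2 had 2.72-fold (49 reads) in ELF3 and a peak in 5 of the 6 further ELF3 libraries, but none for PHYC or PRR37.

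Genes for small RNAs differed by class. Counted on the gene body alone, 26.0% and 22.1% of protein-coding genes had a peak in the PHYC libraries, against 29.6% in ELF3, 27.0 to 33.0% in the further ELF3 libraries and 23.7% in PRR37. Transfer RNA genes, counted likewise, carried a peak at 26 and 33 of 528 in the PHYC libraries, against 13 in ELF3 at LD ZT20 and 10 to 19 in the 6 further ELF3 libraries. PRR37 had 30, so both PHYC libraries and PRR37 lay above all 7 ELF3 libraries although their lists were shorter. Transfer RNA genes overlapped 11 of the 3296 regions of PHYC replicate 1 only (0.334%) and 17 of the 3613 of PHYC replicate 2 only (0.471%), against 1 of the 4806 regions of ELF3 only (0.0208%). Regions of both PHYC lists only did not stand out, with 4 of 1688 (0.237%) against 14 of 5682 (0.246%) for all 3 lists. The pairs with ELF3 had 2 of 2551 (0.0784%) for PHYC replicate 1 and 2 of 1193 (0.168%) for PHYC replicate 2. MicroRNA genes, which make the precursors of gene-silencing RNAs, had a peak at 13 and 15 of 310 for PHYC, 20 for ELF3, 19 to 27 in the further ELF3 libraries and 14 for PRR37, so PHYC and PRR37 lay below all 7 ELF3 libraries here, as they did for protein-coding genes. Small nuclear RNA genes, which encode the RNA of the spliceosome, overlapped peaks at 16 and 25 of 86 for PHYC and 12 for ELF3, but the further ELF3 libraries ranged from 8 to 22 and so included the value of PHYC replicate 1. Small nucleolar RNA genes had 12 and 10 of 299 for PHYC, against 14 for ELF3 and 10 for PRR37. The further ELF3 libraries ranged from 9 to 13 and so included both PHYC values. The transfer RNA and microRNA orders were noticed in the data and were not tested.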

How the data were processed

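The series has 11 samples: 10 ChIP-seq libraries with 1 peak list each, and an input sample with no list analysed here. Per the study's methods reads were mapped with bwa and peaks called with MACS2, whereas the submitters' processing notes name Trimmomatic, Bowtie2, Picard, deepTools and MACS2. The notes list no versions, and the build they name is an Arabidopsis one, although the lists use Brachypodium chromosome names. Each deposited list holds the authors' fold enrichment (a ratio), −log10 p, −log10 q, a deposited score that follows −log10 p, and summit offsets. The authors pooled no libraries. The file values imply that one control, shallower than every ChIP library, was scaled in all calls. The sources do not say which sample it was, and the input sample's labels give conflicting times (ZT0 and ZT20, SD), so every fold and recovered read rests on a control of unknown time.

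From each list the ChIP reads and the background at the summit were recovered as the pair that gives the deposited fold, as (level + 1)/(background + 1), and the deposited Poisson p. Reads came within 0.02 of a whole number in all but 3 peaks of the 3 lists, and 97.5 to 99.0% of peaks allowed a single solution. Regions, classes and Jaccard indices came from all deposited peaks. Gene positions were those of RefSeq (assembly Brachypodium_distachyon_v3.0). Of 7970 summits with −log10 p above 3, 66.0% were at most 500 bp from an end of a coding gene, compared with 21.2% and 19.0% once genes were moved by 10000 and 50000 bp, so the table was used for neighbouring genes. Printed coordinates are those of merged regions, which span the deposited peaks they hold, or of single deposited peaks where a peak is named. They are counted from 1. Tests were exact two-sided sign-flip permutations over 6 ELF3 libraries, adjusted over 3 tests.

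Regions were named by rule, away from 5 kb of chromosome ends: the 10 strongest of each class and the 5 most unequal ranks in each direction. The nearest gene within 2 kb was named. Members and lists were chosen with earlier results of these data known. The study's gene identifiers matched 0 of 30 in the table, so the clock and flowering genes it names and the tagged genes themselves were not analysed here, nor were motifs. Alternatives were q under 0.01, the 1000 or 5000 strongest peaks, a 100 bp overlap, 1 kb around genes, no chromosome ends, and omission of libraries. Scripts were tested on simulated data. Scripts ran in Python 3.11.15 with pandas 2.3.3 and numpy 2.4.6, tests with scipy 1.17.1, and plots with matplotlib 3.10.9.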

Additional observations from a re-analysis of the deposited data

How the results depend on the processing

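Counts of regions and genes followed the threshold. At q under 0.01 the regions numbered 105 for both PHYC lists and ELF3, 44 for both PHYC lists only and 104 for ELF3 only, and the genes 109, 58 and 112. With the 1000 strongest peaks of each list these were 431, 172 and 306 regions and 488, 197 and 299 genes, and with the 5000 strongest 2209, 733 and 1455 regions, with 2564 genes of all 3 lists and 1178 of ELF3 only. The order of both PHYC lists only below ELF3 only was kept in each. Leaving out a PHYC replicate gave 5042 to 5393 PHYC-only regions, 6037 to 7402 ELF3-only regions, 2157 to 2252 PHYC-only genes and 3126 to 4007 ELF3-only genes. The Jaccard index of the PHYC pair minus its mean with ELF3 was 0.0159 and turned to -0.0184 at q under 0.01. In the further ELF3 libraries, the share of ELF3-only minus both-PHYC-only regions ranged from -9.57 to 20.4 points when a library was left out, and turned positive without either PHYC replicate. Above 2.4-fold in every list, an alternative chosen after seeing the data, it was -8.82 points (exact sign-flip permutation p = 0.03125, also 0.03125 adjusted). At q under 0.01 the differences between classes of 1 list and of 2 lists were 8.48 and 6.81 points and no longer passed. Leaving out one further ELF3 library gave 12.4 to 14.5 points and 16.6 to 20.4 points, where 5 libraries cannot pass. Without chromosome ends, with a 100 bp overlap and with 1 kb around genes all values kept their direction and call. No paired analysis was possible because ELF3 at LD ZT20 is 1 library. Regions of a single list rest on medians of 26 to 36 reads, and the part of depth in the class sizes was not tested.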
